A study of Mus musculus with 36 samples.

Results

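Imprinted genes of fetal growth, 10 in all, were followed through mouse heart development and into adulthood. They are *Igf2*, *H19*, *Igf2r*, *Dlk1*, *Meg3*, *Plagl1*, *Peg3*, *Mest*, *Grb10* and *Ndn*. They were taken by name, as every probe set annotated with 1 of the 10 symbols, where a probe set is the group of short probes that reports 1 transcript. This gave 37 probe sets of the 45101 on the array, whose annotation holds 20701 gene IDs. The hearts came from OF1 (Oncins France 1) mice, with no gene altered and no agent given, and their polyadenylated RNA was measured on Affymetrix Mouse430_2 arrays, which do not tell the parental alleles apart. The 36 arrays cover 12 stages of 3 arrays each, namely E10.5 and each following embryonic day until E19.5, the young adult heart at 10 weeks, and the old adult heart at 10 months by the methods or 14 months by the text of the series. The 3 arrays of E10.5 and of E11.5 hold mixed-sex hearts, and every later stage has 1 female, 1 male and 1 mixed array. The methods name 3 pups per time point as the replicates, yet a mixed replicate holds both male and female hearts. How many hearts a mixed array holds, and so how many animals a stage has, is not stated.

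Imprinted genes are transcribed mainly from a single parental allele, set by marks laid down in the germ line. Many of them act on growth before birth: the paternally expressed *Igf2* encodes a growth factor, and the maternally expressed *Igf2r* and *Grb10* restrain it, by clearing the ligand and by dampening signals from the insulin and IGF receptors. *H19* and *Meg3* are maternally expressed long non-coding RNAs that lie beside the paternally expressed protein-coding genes *Igf2* and *Dlk1*. *Plagl1* and *Peg3* encode zinc-finger proteins, *Mest* a protein of the hydrolase family, and *Ndn* the growth suppressor necdin.

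Both long non-coding RNAs contain microRNAs within their gene interval, and these are shown. The RNA of both genes was called higher than in young adult hearts at each of the 3 embryonic stages compared below. *Igf2* and *Mest* also contain microRNAs and were also called higher at these stages, and their microRNAs are not shown. In the RefSeq annotation of GRCm38.p6, *H19* lies at chr7:142575530-142578146 and *Meg3* at chr12:109540996-109571729. The capitals mark the seed, bases 2 to 8 of the mature microRNA, which sets most of its target pairing.
miR-675-5p, in *H19*: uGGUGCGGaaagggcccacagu
miR-675-3p, in *H19*: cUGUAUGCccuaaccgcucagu
miR-1906, in *Meg3*: uGCAGCAGccugaggcagggcu
miR-770-5p, in *Meg3*: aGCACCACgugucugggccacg
miR-770-3p, in *Meg3*: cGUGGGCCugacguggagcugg
These sequences are 22 bases long and no seed is shared among them. Within the 10 gene intervals RefSeq lists 9 mature microRNAs, from 4 genes, with 9 different seeds. The microRNA arrays of the study were not analysed here, so the values below are those of the host transcripts only.

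RefSeq windows from 250 bases before to 50 bases after a transcription start were matched for 9 of the 10 genes (not *H19*), 16 windows in all. They were searched on both strands for GGGGCCCC, the core motif bound by the PLAGL1 protein, a palindrome, and for the TATA box motif TATAAA. The PLAGL1 core was found in 1 of the 16 windows, that of *Peg3*, beginning at position -201 from the start, against 1.08% of all 32851 windows. TATAAA was found in 1 of the 16, upstream of *Meg3*, against 13.6% of all windows. The 250 bases upstream of both starts are shown because these are the members whose windows held a match, with the matched letters in capitals. In the *Meg3* sequence the capitals join TATAAA, beginning at position -25 from the start, and its reverse complement TTTATA, beginning at -29, which overlap.
*Peg3*, minus strand, chr7:6730420-6730669: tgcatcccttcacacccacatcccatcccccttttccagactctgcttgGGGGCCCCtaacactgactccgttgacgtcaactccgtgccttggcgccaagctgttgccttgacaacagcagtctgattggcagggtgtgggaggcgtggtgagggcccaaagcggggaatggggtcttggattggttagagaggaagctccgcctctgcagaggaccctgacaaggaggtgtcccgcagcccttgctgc
*Meg3*, plus strand, chr12:109540746-109540995: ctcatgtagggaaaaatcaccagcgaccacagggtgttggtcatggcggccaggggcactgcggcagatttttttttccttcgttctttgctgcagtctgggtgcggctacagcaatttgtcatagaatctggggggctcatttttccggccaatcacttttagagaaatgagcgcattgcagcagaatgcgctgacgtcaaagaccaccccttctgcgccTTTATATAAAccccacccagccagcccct
A match of letters is a description of the sequence and no measurement of binding.

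The values are log2 intensities, and each gene is read from the probe set with the highest mean over the 36 arrays. Levels of different probe sets are not compared with each other, because probes differ in how strongly they hybridise. Of 8 cardiomyocyte markers listed, 7 were measured, and all 7 had a stage mean above 5. Of the liver markers, 6 of 8 were measured and 1 had a stage mean above 5; this was checked because the extraction text of the labels names liver where the methods and tissue labels name heart. The stage means of *Alb* lay between 3.27 and 4.05 and those of *Afp* between 3.28 and 3.97, at every stage below the expression limit of 5. The level of the 18 hybridization control probe sets, transcripts added in equal amounts to every array, ranged from 9.68 to 12.01 over the embryonic arrays, from 12.03 to 12.43 in young adult and from 11.16 to 11.56 in old adult arrays. The prefix of the sample titles changes from the E16.5 female array on and again at the adult arrays. It thus differs between every embryonic stage and both adult stages, and what the changes mark is not stated.

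Most of these genes were higher throughout embryonic life than in the adult heart. A probe set was called different at an adjusted p under 1e-05, a log2 fold change beyond 2 in either direction, and 1 or more stage means over 5. The test was limma with Benjamini-Hochberg adjustment over all probe sets. The last condition was met by 31 of the 37 member probe sets and by 20685 of all 45101. The shares of all probe sets given below thus include many that could not be called. In E10.5 hearts 18 of the 37 were called higher than in young adult hearts and 0 lower, in 8 of the 10 genes, against 4.43% of all probe sets called higher and 2.10% called lower. At E14.5 the counts were 17 higher and 0 lower, again in 8 genes, with a background of 2.65% and 1.52%. At E19.5, just before birth, 14 were called higher and 0 lower in 8 genes, with a background of 0.818% and 0.634%. The median log2 fold change of the 37 probe sets was 2.26 at E10.5, 1.15 at E14.5 and 0.82 at E19.5, and that of all probe sets was -0.19, -0.11 and -0.04. Over probe sets with a stage mean above 5 the medians were 2.54, 2.32 and 1.49 for the members and 0.41, 0.24 and 0.13 for all. By limma 30, 27 and 23 of the 37 had an unadjusted p under 0.05, for which no share of all probe sets was computed. These comparisons share the 3 young adult arrays. With the hybridization control level as a covariate 11 were called at E10.5, and with only the arrays of both stages 8 were called at E19.5. Proliferation markers, 5 genes, moved with these differences, with a mean level of 8.12 to 8.35 at E10.5 against 4.25 to 4.41 in young adult arrays, and their part was not tested. *Dlk1* and *Ndn* were the members without a call.

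With an adjusted p under 0.05 and no fold limit, 28 member probe sets were higher and 2 lower at E10.5, against 27.1% and 35.9% of all probe sets. At E14.5, 26 were higher and 1 lower, against 21.8% and 23.6%. At E19.5, 20 were higher and 0 lower, against 15.5% and 13.6%. The probe sets that were lower, of *Ndn* and *Peg3*, had no stage mean above 5. For 18 member probe sets, from 8 genes, the lowest of the 30 embryonic arrays lay above the highest of the 6 adult arrays, as it did for 5.84% of all probe sets. In whole hearts, fewer cells of a type and less RNA per cell cannot be told apart.

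**Figure D1:**
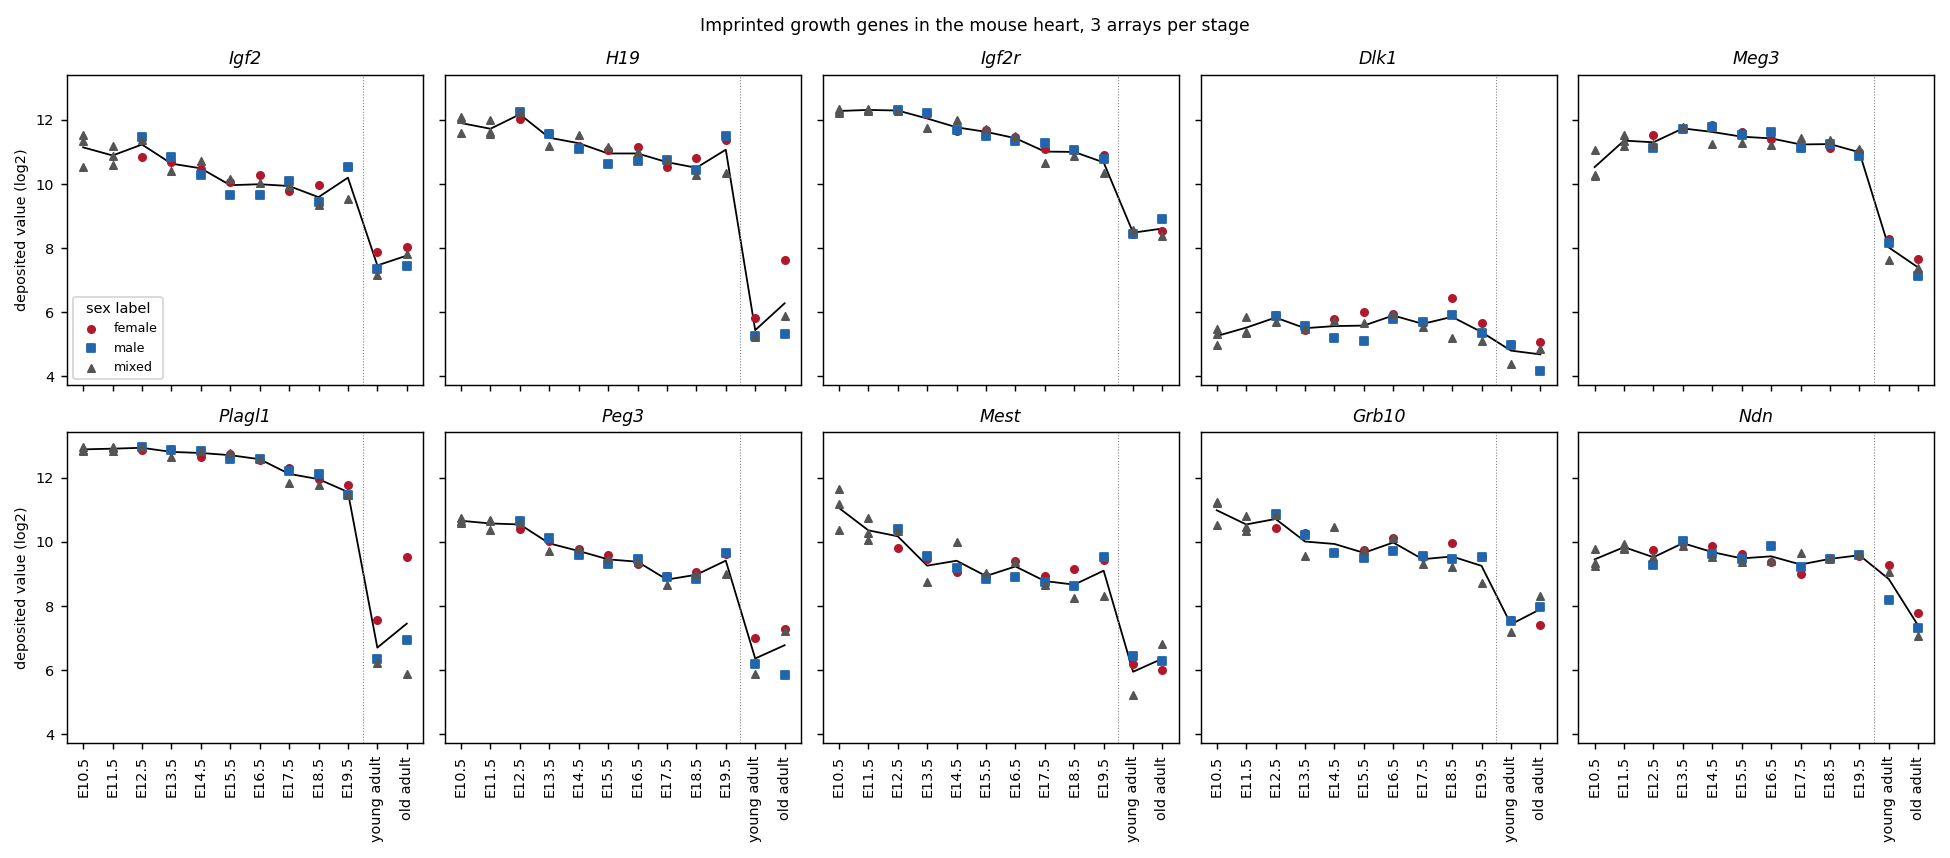
Deposited log2 value (vertical axis) by stage (horizontal axis) of the highest-mean probe set of each of the 10 genes, with 1 point per array, marked by its sex label, and a line through the stage means. The dotted line separates the embryonic from the adult stages. *Igf2*, *H19*, *Igf2r*, *Meg3*, *Plagl1*, *Peg3*, *Mest* and *Grb10* have all 30 embryonic arrays above all 6 adult arrays, and *Dlk1* and *Ndn* do not.

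The ligand gene *Igf2* (chr7:142650768-142666816) read 11.36, 11.54 and 10.54 on the 3 E10.5 arrays and 10.48, 10.28 and 10.71 at E14.5. At E19.5 it read 10.53, 10.53 and 9.54. In young adult hearts it read 7.34, 7.17 and 7.88, and in old adult hearts 7.45, 7.83 and 8.02. Every embryonic array was thus above every adult array, while young and old arrays overlapped. *Igf2* was 12.9-fold higher at E10.5 than in young adult hearts (log2 3.69, SE 0.26, adjusted p = 2.8e-13) and still 6.68-fold higher at E19.5 (log2 2.74, SE 0.26, adjusted p = 1.0e-09). Its other probe set gave 4.09 and 3.18 for the same log2 differences and also passed all limits. Between E10.5 and E19.5 *Igf2* fell by less than the fold limit, the E10.5 level being 0.95 higher on the log2 scale (SE 0.26, adjusted p = 0.00416).

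*H19*, whose interval ends 72621 bases from that of *Igf2*, had 12.03, 12.11 and 11.58 at E10.5, 11.20, 11.09 and 11.54 at E14.5, and 11.39, 11.49 and 10.35 at E19.5. Young adult arrays read 5.27, 5.22 and 5.83 and old adult arrays 5.31, 5.88 and 7.64. The adult readings lay close to the expression limit of 5, and the old adult female array stood above the other adult arrays. *H19* was 88.3-fold higher at E10.5 than in young adult hearts (log2 6.46, SE 0.34, adjusted p = 1.5e-16) and 49.6-fold higher at E19.5. At its highest stage, E12.5, the ratio of the stage means was 107.

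*H19* and the highest-mean probe set of *Igf2* followed each other stage by stage. Ranked by their means, the 12 stages stood in the same order for both, with E12.5, E10.5 and E11.5 at the top, E19.5 above E15.5 to E18.5, and old adult and young adult at the bottom. Pearson's r of their stage means was 0.98 over 12 stages and 0.99 over the 10 embryonic stages, given as a description since both genes were read on the same arrays. The other *Igf2* probe set had another order: it also peaked at E12.5, but its E10.5 mean ranked below those of E11.5 to E14.5, its E19.5 mean of 6.68 lay below the 7.45 of E15.5, and old adult was below young adult. Neighbours in the order of each probe set's own stage means mostly did not differ beyond their spread. For *H19* and the brighter *Igf2* probe set the array ranges were apart at 1 of the 11 steps, that from E18.5 to old adult. For the dimmer *Igf2* probe set, in its own order, they were apart at 4 of 11. The mixed array of E19.5 was the lowest of its stage for both genes and also for *Peg3*, *Mest*, *Grb10*, *Igf2r*, *Dlk1* and, narrowly, *Plagl1*. For *Meg3* and *Ndn* it was the highest.

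*Igf2r* (chr17:12682406-12769706), the receptor that takes IGF2 to the lysosome, fell over the embryonic days. It read 12.28, 12.34 and 12.22 at E10.5, 11.64, 11.69 and 11.98 at E14.5, 10.91, 10.77 and 10.35 at E19.5, 8.46, 8.56 and 8.43 in young adult and 8.92, 8.39 and 8.53 in old adult hearts. From E11.5 on each stage mean was below the one before, up to E19.5, and the 3 E10.5 arrays were above the 3 E19.5 arrays. The E10.5 level exceeded that of E19.5 by 1.61 on the log2 scale (SE 0.16, adjusted p = 1.2e-09), and E14.5 exceeded E19.5 by 1.10 (SE 0.16, adjusted p = 7.9e-06). Against young adult hearts *Igf2r* was 13.9-fold higher at E10.5 and 4.57-fold higher at E19.5 (adjusted p = 4.8e-19 and 1.5e-12). A second probe set passed the fold limit between E10.5 and E19.5 as well (log2 2.03, SE 0.24, adjusted p = 5.9e-08). The third stayed between 4.82 and 5.41 in all embryonic stage means and passed no test against young adult hearts.

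The *Dlk1*-*Meg3* domain on chromosome 12 had another course. *Dlk1* (chr12:109452485-109463336), a transmembrane protein related to Notch ligands, was low at every stage, with array values from 4.99 to 6.45 in embryos and from 4.16 to 5.06 in adults. Its highest stage mean was 5.90 ± 0.09 (SD, n = 3) at E16.5, and the lowest in embryos was 5.26 ± 0.24 at E10.5. No neighbouring stages in the order of its means had array ranges apart. *Dlk1* was 0.77 higher at E14.5 than in young adult hearts (SE 0.25, adjusted p = 0.0132), and the difference at E10.5 was 0.46 (SE 0.25, adjusted p = 0.112). The sign at E10.5 depended on the scaling, being -0.071 after median centring and -0.0081 after quantile renormalization.

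*Meg3* was lowest among embryos at the earliest stage. Its arrays read 10.27, 10.27 and 11.05 at E10.5, 11.86, 11.77 and 11.26 at E14.5, and 11.00, 10.89 and 11.10 at E19.5. The stage mean peaked at E13.5, at 11.74 ± 0.04 (SD, n = 3). Young adult arrays read 8.16, 7.63 and 8.27 and old adult arrays 7.13, 7.38 and 7.68, so that embryonic and adult arrays were far apart. The difference to young adult hearts was 2.51 at E10.5 (SE 0.19, adjusted p = 1.8e-12), 3.61 at E14.5 (SE 0.19, adjusted p = 5.3e-16) and 2.97 at E19.5 (SE 0.19, adjusted p = 2.1e-13). The 8 fibroblast and mesenchyme markers, whose mean level was 9.66 to 10.28 in young adult arrays, 10.02 to 10.30 at E19.5 and 8.04 to 8.34 at E10.5, also stood low at E10.5; their part in the *Meg3* profile was not tested.

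*Meg3* was represented by 11 probe sets, 10 of them with a stage mean above 5, and these did not tell a single story for the embryonic period. Between E10.5 and E19.5, 5 were higher at E10.5 and 2 lower at an adjusted p under 0.05. The brightest was 0.46 lower at E10.5 (SE 0.19, adjusted p = 0.0498), whereas a dimmer one, 1428764_at, was 1.41 higher at E10.5 (SE 0.27, adjusted p = 7.4e-05). The mean over all *Meg3* probe sets was 0.31 higher at E10.5 (adjusted p = 0.0320). Between E14.5 and E19.5 the probe sets pointed one way, with 5 higher at E14.5 and 0 lower. Against young adult hearts 5 were called higher at E10.5, 6 at E14.5 and 4 at E19.5, and none lower.

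**Figure D2:**
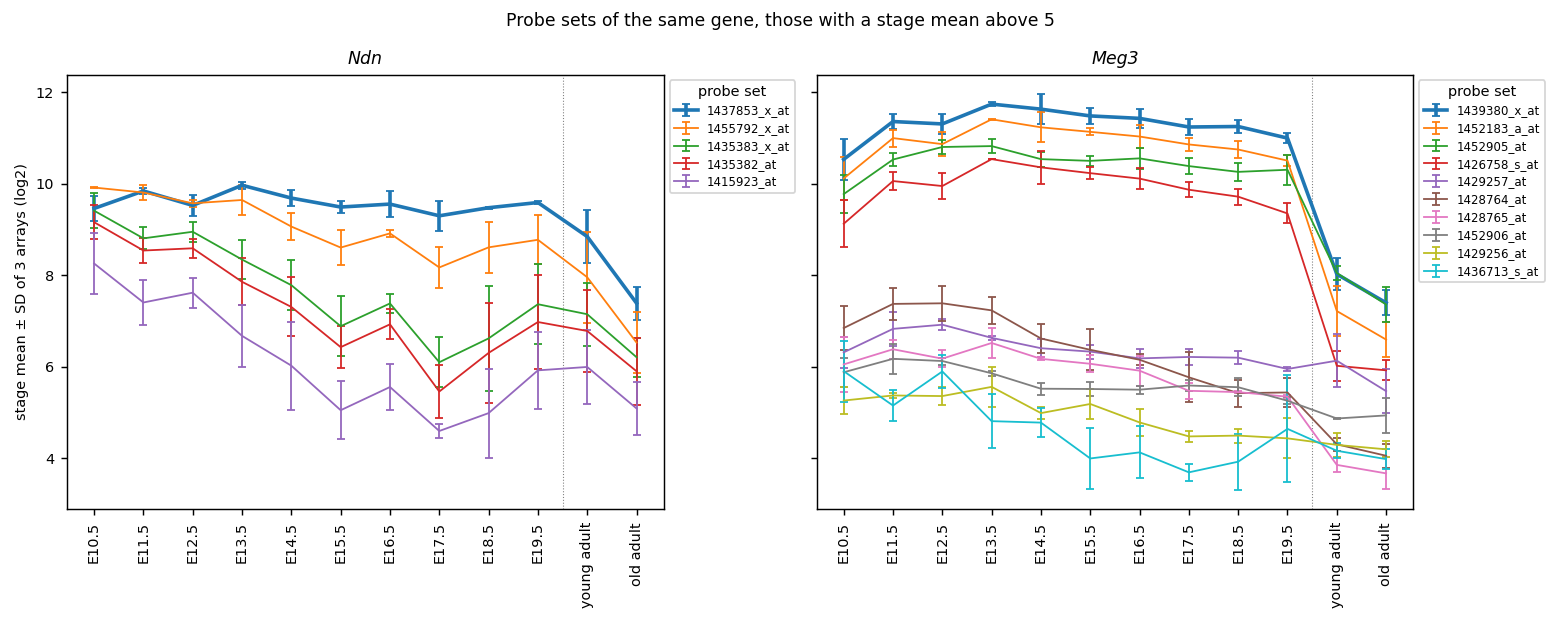
Stage mean with SD over 3 arrays (log2, vertical axis) by stage (horizontal axis) for each probe set of *Ndn* and *Meg3* that had a stage mean above 5; the thick line is the highest-mean probe set. The highest-mean *Ndn* probe set stays between 9.30 and 9.96 in embryos while 1415923_at reads 8.25 at E10.5 and 4.59 at E17.5, and the 4 brightest *Meg3* probe sets are lowest among embryos at E10.5.

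*Plagl1* (chr10:13090832-13131694), a zinc-finger transcription factor, had, with *H19*, the largest fold over young adult hearts among the 10 genes at E10.5, E14.5 and E19.5. It read 12.87, 12.83 and 12.97 at E10.5, 12.65, 12.84 and 12.85 at E14.5, and 11.77, 11.46 and 11.45 at E19.5. Young adult arrays read 6.33, 6.22 and 7.56, and old adult arrays 6.95, 5.87 and 9.53. In both adult stages the female array was the highest of the 3, and embryonic and adult arrays did not overlap. *Plagl1* was 72.9-fold higher at E10.5 (log2 6.19, SE 0.44, adjusted p = 2.4e-13) and 29.0-fold higher at E19.5 (log2 4.86, SE 0.44, adjusted p = 3.0e-10) than in young adult hearts. Within the embryonic series the E10.5 level was 1.33 above that of E19.5 (SE 0.44, adjusted p = 0.0142). This SE uses a spread pooled over the 12 stages, and the adult arrays, from 5.87 to 9.53, were spread more widely than either embryonic stage. The E10.5 arrays, 12.83 to 12.97, all lay above the E19.5 arrays, 11.45 to 11.77. Its dimmer probe set was at 6.16 at E10.5 and 3.18 at E19.5, a difference of 2.98 that passed all limits (SE 0.34, adjusted p = 2.7e-08), and at E19.5 it did not differ from young adult hearts by either rule.

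*Peg3* (chr7:6703892-6730462), the other zinc-finger gene, read 10.65, 10.75 and 10.59 at E10.5, 9.78, 9.59 and 9.79 at E14.5, and 9.62, 9.65 and 8.99 at E19.5. Young adult arrays read 6.20, 5.88 and 7.01 and old adult arrays 5.84, 7.21 and 7.28. The lowest embryonic mean was 8.83 ± 0.16 (SD, n = 3) at E17.5, and all embryonic arrays exceeded all adult arrays. *Peg3* was 19.7-fold higher at E10.5 (log2 4.30, SE 0.25, adjusted p = 2.5e-15) and 8.30-fold higher at E19.5 (log2 3.05, SE 0.25, adjusted p = 4.1e-11). Between E10.5 and E19.5 it fell, the E10.5 level being 1.24 higher (SE 0.25, adjusted p = 1.8e-04), and the probe set 1417356_at exceeded the fold limit there (log2 2.44, SE 0.29, adjusted p = 4.4e-08). Of its 5 probe sets, 2 stayed between 1.80 and 2.14 in all stage means at the bottom of the intensity scale.

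*Mest* (chr6:30733506-30748466) had its highest stage mean at E10.5. Its arrays read 11.18, 11.64 and 10.37 at E10.5, 9.07, 9.18 and 10.00 at E14.5, 9.45, 9.54 and 8.32 at E19.5, 6.44, 5.23 and 6.18 in young adult and 6.27, 6.80 and 6.01 in old adult hearts. The arrays of a stage were spread widely, with an SD of 0.65 at E10.5 and 0.68 at E19.5 (n = 3), yet the E10.5 arrays were all above those of E19.5. The E10.5 level was 1.96 above E19.5 on the log2 scale (SE 0.34, adjusted p = 2.0e-05), which missed both the fold and the p limit of a call. Without the third E10.5 array the difference was 2.31 and was called, without the mixed E19.5 array it was 1.57, and with the hybridization control level as a covariate it was 1.01 (adjusted p = 0.0683). Against young adult hearts *Mest* was 34.6-fold higher at E10.5 (adjusted p = 4.1e-14) and 8.91-fold higher at E19.5 (adjusted p = 8.5e-09).

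*Grb10* (chr11:11930499-12037428), the adaptor of the insulin and IGF receptors, read 11.20, 11.25 and 10.51 at E10.5, 9.69, 9.65 and 10.48 at E14.5, and 9.53, 9.52 and 8.71 at E19.5. Young adult arrays read 7.54, 7.20 and 7.56 and old adult arrays 7.97, 8.32 and 7.42. It was 11.8-fold higher at E10.5 than in young adult hearts (log2 3.56, SE 0.26, adjusted p = 4.6e-13). At E19.5 the difference was 1.83 (SE 0.26, adjusted p = 1.5e-06), under the fold limit. A second probe set, 1430164_a_at, had another course, with its highest stage mean of 8.98 at E15.5 and 7.58 at E19.5. It passed all limits at E19.5 against young adult hearts (log2 2.59, SE 0.18, adjusted p = 1.4e-12), and E14.5 was 1.17 above E19.5 by it (SE 0.18, adjusted p = 3.3e-05).

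*Ndn* (chr7:62348277-62349928) stood apart from the other members. Its highest-mean probe set read 9.25, 9.35 and 9.77 at E10.5, 9.88, 9.64 and 9.54 at E14.5, and 9.56, 9.58 and 9.62 at E19.5. Young adult arrays read 8.20, 9.06 and 9.27, reaching into the embryonic range, and old adult arrays read 7.32, 7.07 and 7.77. It was 0.74 higher at E19.5 than in young adult hearts (SE 0.21, adjusted p = 0.00640). Another 4 probe sets of *Ndn* fell within the embryonic period, and none of them passed a test between E19.5 and young adult hearts. Of these, 1435382_at read 9.31, 9.43 and 8.73 at E10.5, 7.78, 7.31 and 5.83 at E19.5, and 5.86, 6.84 and 7.63 in young adult hearts. By it the E10.5 level was 2.18 above that of E19.5 (SE 0.48, adjusted p = 4.6e-04), with the arrays of E19.5 and young adult overlapping. The 4 probe sets were higher at E10.5 than at E19.5 by 1.14 to 2.33 on the log2 scale, all at an adjusted p under 0.05 and none within the limit of 1e-05. The remaining 3 of the 8 had no stage mean above 5.

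Within the embryonic series, 3 of the 37 member probe sets were called higher at E10.5 than at E19.5 and 0 lower, from *Igf2r*, *Peg3* and *Plagl1*, against 1.48% and 0.698% of all probe sets. At an adjusted p under 0.05, 23 were higher and 3 lower at E10.5, against 21.8% and 23.7%. Between E14.5 and E19.5 limma called 0 in either direction (background 0.0843% and 0.140%), with 16 at an unadjusted p under 0.05. No share of all probe sets was computed for the 16. At an adjusted p under 0.05, 9 were higher at E14.5 and 0 lower (background 8.46% and 5.10%), from *Meg3*, *Igf2r*, *Igf2* and *Grb10*. The highest-mean *Plagl1* probe set did not pass, though it was 1.22 higher at E14.5 with the arrays apart (12.65 to 12.85 against 11.45 to 11.77). Its pooled spread includes the widely spread adult arrays. Several other measures moved from E10.5 to E19.5. The mean level of the proliferation markers was 6.45 to 6.86 at E19.5. The 5 erythroid markers, embryonic globins among them, had 9.12 to 9.82 at E10.5 and 3.75 to 3.96 at E19.5. The hybridization control level was 9.68 to 10.35 at E10.5 and 10.97 to 11.39 at E19.5, and the title prefix differs between these stages. With the control level as a covariate, limma called 0 member probe sets between E10.5 and E19.5, 11 between E10.5 and young adult and 12 between E19.5 and young adult. The part of the cell-type markers and of the title prefix was not tested.

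The step from E18.5 to E19.5, compared after the stage means had been seen, was upward in the mean for *H19* (log2 0.57, SE 0.34, adjusted p = 0.544), *Igf2* (0.61, SE 0.26, adjusted p = 0.325), *Peg3* (0.44, SE 0.25, adjusted p = 0.520) and *Mest* (0.44, SE 0.34, adjusted p = 0.687). It was downward for *Dlk1* (-0.47), *Plagl1* (-0.40), *Igf2r* (-0.33), *Grb10* (-0.29) and *Meg3* (-0.25), and 0.11 for *Ndn* and 0.033 for the dimmer probe set of *Igf2*. None of these passed the test, and the arrays of both days overlapped for *H19*, *Igf2*, *Peg3* and *Mest*. Without the mixed E19.5 array the differences were 0.93 for *H19*, 0.94 for *Igf2* and 0.83 for *Mest*. By limma 4 member probe sets had an unadjusted p under 0.05, for which no share of all probe sets was computed. At an adjusted p under 0.05, 0 were higher at E19.5 and 1 lower, against 0.468% and 0.865% of all probe sets. The lower one was 1430164_a_at of *Grb10*, at 7.58 against 8.32 (log2 -0.74, SE 0.18, adjusted p = 0.0346).

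Ageing from young to old adult left most members where they were within the spread of the arrays. No member probe set was called by limma, and 11 had an unadjusted p under 0.05, for which no share of all probe sets was computed. At an adjusted p under 0.05, 0 were higher and 5 lower in old adult hearts, against 3.83% and 3.13% of all probe sets, and they belonged to *Ndn* (3) and *Meg3* (2). The highest-mean probe set of *Ndn* fell by 1.46 on the log2 scale, or 2.74-fold (SE 0.21, adjusted p = 7.2e-05), with the 3 old arrays, 7.07 to 7.77, below the 3 young arrays, 8.20 to 9.27. Fitted on these 6 arrays alone the same difference had an adjusted p = 0.112. As the mean over all *Ndn* probe sets the limma difference was -0.76 (adjusted p = 0.0354). *Meg3* fell by 0.63 (SE 0.19, adjusted p = 0.0449), and by 0.23 with the hybridization control level as a covariate (adjusted p = 0.511). As the mean over all *Meg3* probe sets the limma difference was -0.31 (adjusted p = 0.118). Without each adult array in turn, the adjusted p of its brightest probe set ranged from 0.018 to 0.196. For *H19* the difference was 0.84 (SE 0.34, adjusted p = 0.124) and for *Plagl1* 0.75 (SE 0.44, adjusted p = 0.309). Without the old adult female array the *H19* difference was 0.16 and the *Plagl1* difference -0.29. The fibroblast and mesenchyme markers had a mean level of 9.66 to 10.28 in young and 8.90 to 9.83 in old adult arrays. Among them *Col1a1*, *Col1a2*, *Col3a1* and *Lum* had lower stage means in old adult hearts, and *Dcn*, *Pdgfra*, *Pdgfrb* and *Postn* higher ones. The 4 endothelial markers had a mean level of 7.39 to 7.58 in young and 7.83 to 8.70 in old. The part of these markers was not tested.

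**Figure D3:**
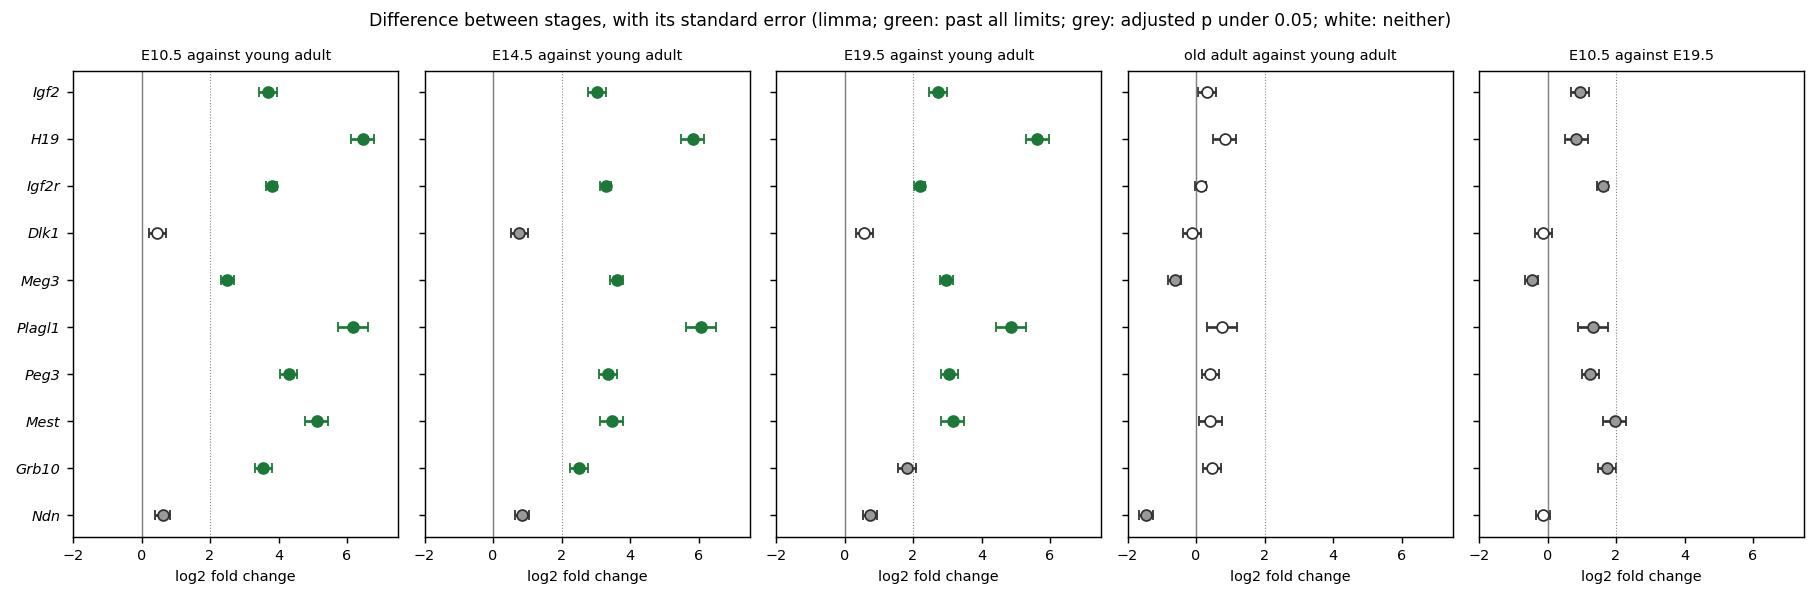
Log2 fold change (horizontal axis, first stage minus second) with its standard error for the highest-mean probe set of each gene in 5 comparisons. Green points pass all limits, grey points have an adjusted p under 0.05 and white points neither, and dotted lines mark the fold limit. Against young adult hearts *H19* is at 6.46 and *Plagl1* at 6.19 at E10.5, and *Ndn* at -1.46 in old adult hearts.

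Each male array was compared with the female array of its stage, in the 9 pairs the study used (E13.5 and all later stages). No member probe set passed an adjusted p of 0.05 in limma with stage as a block, against 0.0244% of all probe sets higher and 0.0244% lower in males, and 10 had an unadjusted p under 0.05. At that limit 0 were higher and 10 lower in males, against 3.54% and 4.26% of all probe sets, and the 10 came from 6 genes, with 4 of them from *Ndn*. Of the *Ndn* probe sets, 1435382_at was lower in the male in 8 of 9 pairs, by -0.61 on average (SE 0.15, adjusted p = 0.329). *Dlk1* was lower in the male in 8 of 9 pairs (-0.37, SE 0.11, adjusted p = 0.487), and *H19* in 7 of 9 (-0.44, SE 0.19, adjusted p = 0.600). For *H19* the pairs ranged from -2.33 to 0.21, the lowest being the old adult pair.

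The members differed in the shape of their profiles. Over all 12 stages Pearson's r between members ranged from 0.66 to 0.99, with a median of 0.92 over the 45 pairs, with most members lower in both adult stages than in any embryonic stage. Over the 10 embryonic stages alone the range was -0.51 to 0.99 with a median of 0.46. *Igf2*, *H19*, *Igf2r*, *Plagl1*, *Peg3*, *Mest* and *Grb10* formed 21 pairs with r from 0.63 to 0.99. *Meg3* and *Mest* had the lowest value, -0.51, and *Dlk1* and *Meg3*, neighbours 77659 bases apart, had 0.46. All members were read on the same arrays, so these values are descriptions.

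**Figure D4:**
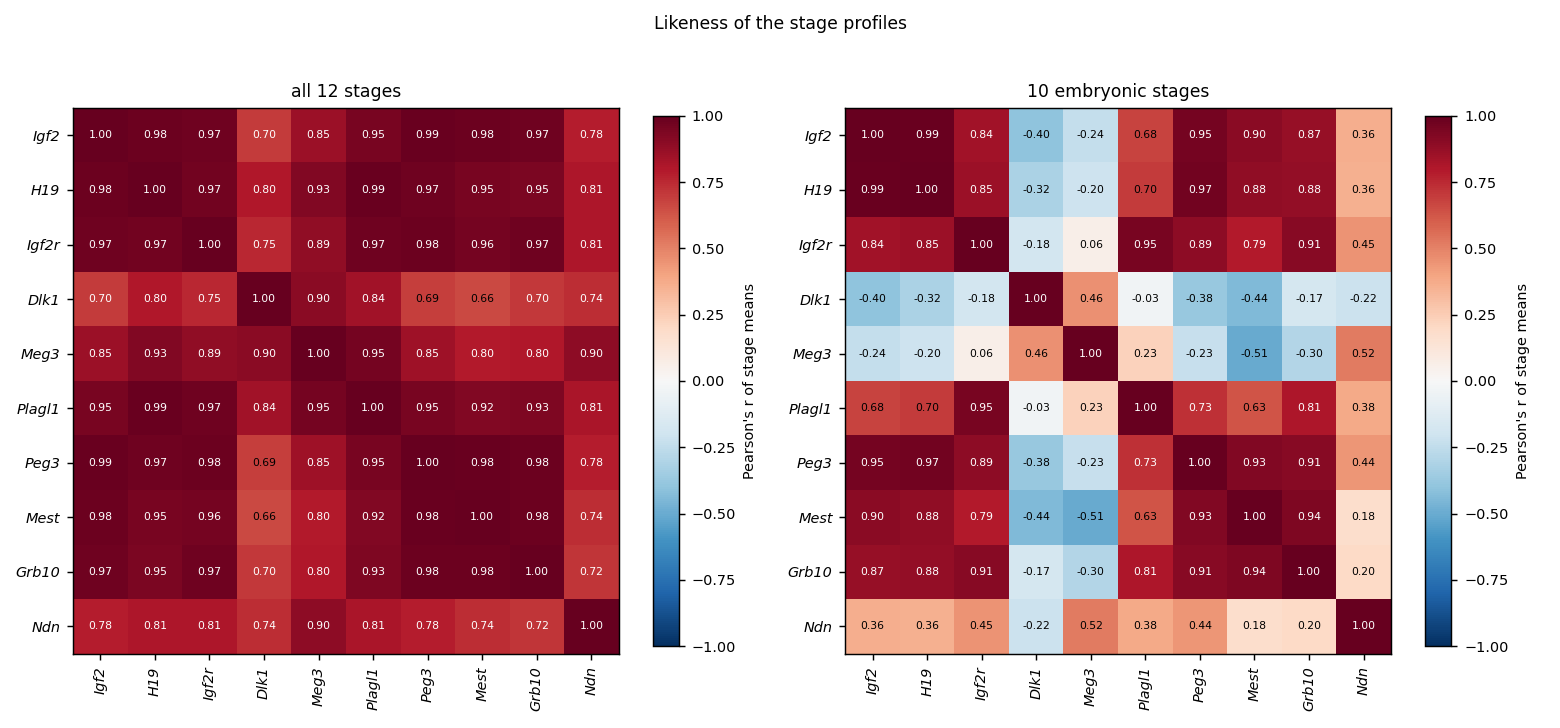
Pearson's r of the stage means for every pair of the 10 genes, over all 12 stages (left) and over the 10 embryonic stages (right), with colour from -1 (blue) to 1 (red). On the right, 7 genes have r from 0.63 to 0.99 with each other, and *Dlk1*, *Meg3* and *Ndn* have lower or negative values with them.

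Among 18440 probe sets with a symbol and a stage mean above 5, the 3 genes with the profile most like each member over the 12 stages had r from 0.944 to 0.998. They were *Ehmt1*, *Peg3* and *Pold3* for *Igf2*, and *Ttc14*, *Prelid1* and *Igf2bp3*, an RNA-binding protein that binds *Igf2* mRNA, for *H19*. For *Igf2r* they were *Tceal9*, *Sox11* and *Slc4a7*, for *Plagl1* *Pttg1*, *Zbed6* and *Kif2c*, and for *Peg3* *Pold3*, *Klhl13* and *Yy1*. For *Mest* they were *D2Ertd612e*, *Cenpp* and *Shmt1*, and for *Grb10* *Smc2*, *Tbl1x* and *Nsd1*. For *Meg3* they were *Nrep*, *Ptprd* and *Atp1b1*, for *Dlk1* *Wbp1l*, *Vasn* and *Pkdcc*, and for *Ndn* *Cdk13*, *Slmap* and *Ccdc141*. Only 1 of the 30 was another member, and 1 of the 30 was also among the nearest 3 by Spearman's rho, so the names depend on the measure of likeness.

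Of 59 other imprinted genes listed, 53 were measured, by 110 probe sets. At E19.5 against young adult hearts 7 of these probe sets, from 6 genes, were called higher and 0 lower (background 0.818% and 0.634%), and 48 had an unadjusted p under 0.05 by limma. The median log2 fold change was 0.21 against -0.04 over all probe sets. Over the 60 with a stage mean above 5 it was 0.55, against 0.13 for all such probe sets. The called genes were *Slc38a4*, an amino acid transporter (log2 4.57, SE 0.27, adjusted p = 3.0e-14), *Ddc*, the decarboxylase of the dopamine pathway (3.93, SE 0.25, adjusted p = 1.4e-13), *Rian*, a non-coding RNA of the *Meg3* domain (2.72, SE 0.23, adjusted p = 1.0e-10), *Airn*, the antisense RNA of *Igf2r* (2.71, SE 0.27, adjusted p = 1.6e-09), *Asb4* (2.50, SE 0.26, adjusted p = 7.9e-09) and *Ppp1r9a* (2.29, SE 0.28, adjusted p = 1.3e-07). At E10.5 the counts were 16 probe sets higher, from 9 genes, and 0 lower, beside 4.43% and 2.10% of all probe sets, and at E14.5 20 higher, from 11 genes, and 0 lower, beside 2.65% and 1.52%. At these stages 78 and 61 of the 110 had an unadjusted p under 0.05 by limma. No share of all probe sets was computed for these counts or for the 48 at E19.5. At an adjusted p under 0.05, 53 were higher and 25 lower at E10.5, against 27.1% and 35.9% of all probe sets. At E14.5, 44 were higher and 10 lower, against 21.8% and 23.6%. At E19.5, 34 were higher and 5 lower, against 15.5% and 13.6%. *Rian*, *Airn*, *Asb4* and *Ppp1r9a* were called at E19.5 by a dimmer probe set only, and their highest-mean probe sets were not called.

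Of the IGF axis, all 21 listed genes were measured, by 52 probe sets, with 3 called higher and 1 lower at E19.5 against young adult hearts (background 0.818% and 0.634%) and a median log2 fold change of 0.27 beside the same -0.04. Over the 41 with a stage mean above 5 the median was 0.30, beside 0.13 for all such probe sets. The called genes were the *Igf2* mRNA-binding proteins *Igf2bp3* (log2 4.26, SE 0.12, adjusted p = 1.4e-21) and *Igf2bp2* (3.62, SE 0.25, adjusted p = 6.1e-13, and 4.24 by a dimmer probe set), which were higher, and the binding protein *Igfbp6* (-2.26, SE 0.32, adjusted p = 1.8e-06), which was lower. At E10.5 the counts were 12 higher and 1 lower (background 4.43% and 2.10%), and at E14.5 6 higher and 1 lower (2.65% and 1.52%).

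**Figure D5:**
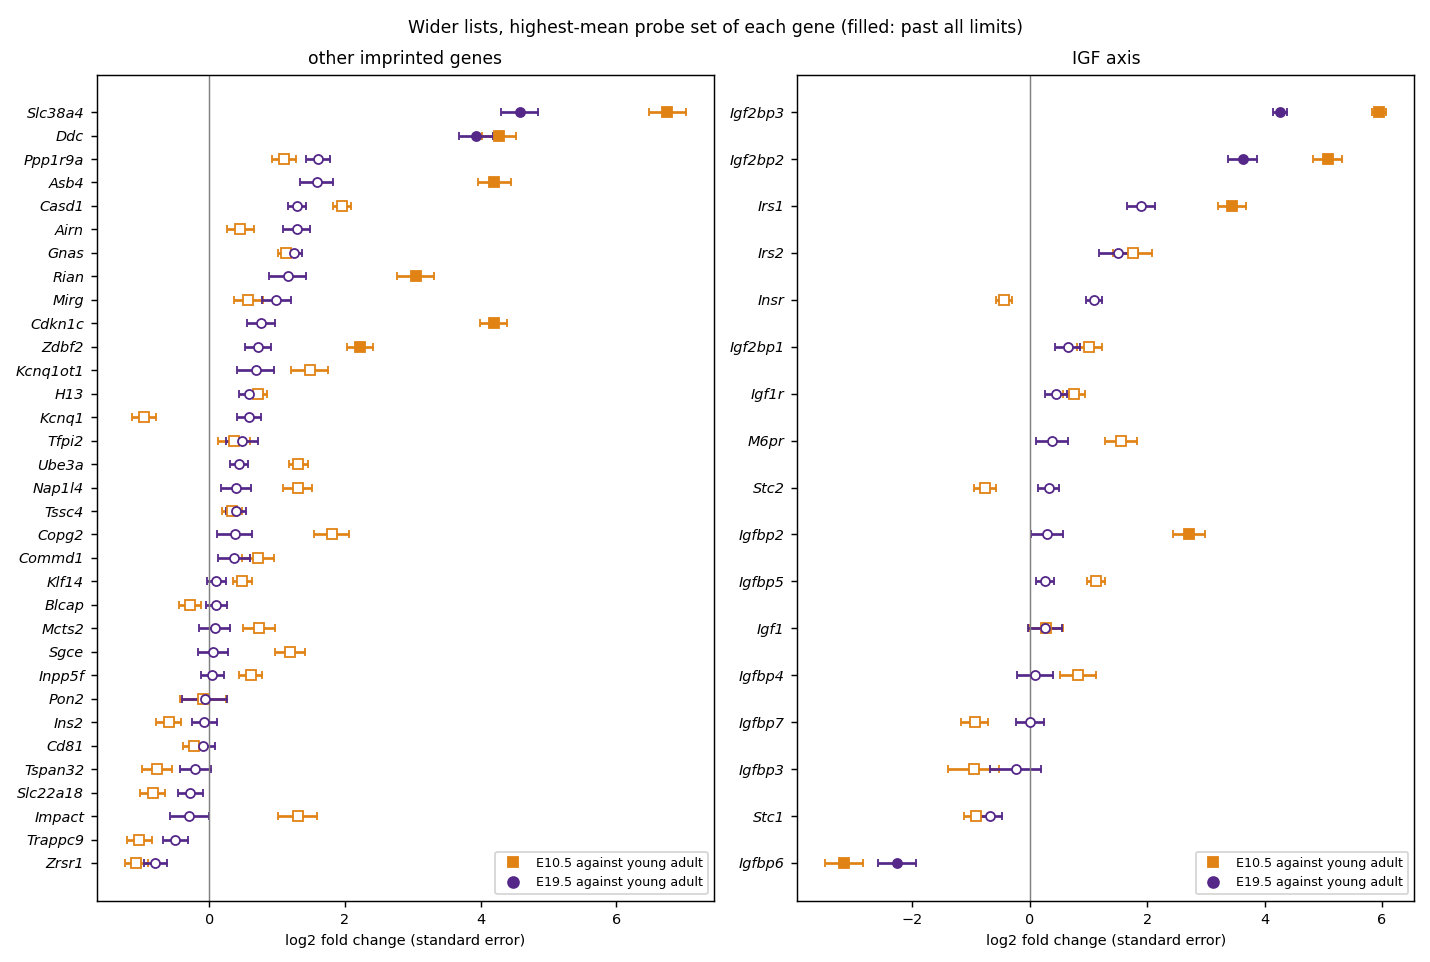
Log2 fold change against young adult hearts (horizontal axis) with its standard error at E10.5 (squares) and E19.5 (circles) for the other imprinted genes and the IGF axis, each gene by its highest-mean probe set and shown where a stage mean was above 5. Filled symbols pass all limits. *Slc38a4* leads the imprinted genes and *Igf2bp3* the IGF axis at E19.5, at 4.57 and 4.26.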

How the data were processed

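Arrays were grouped by the stage given in their labels. The deposited values are log2 intensities that the authors made by robust multi-array average (background correction, quantile normalization and summary per probe set); the submitters' processing notes also name Affymetrix Expression Console and Partek 6.6. They were used as deposited. Members were found by the symbol in the array's annotation, and other symbols were restored from gene IDs through RefSeq (GRCm38.p6). In R 4.3.3, limma 3.58.1 fitted 1 model with 12 stage means to all 36 arrays and 45101 probe sets, with Benjamini-Hochberg adjustment within each comparison. The 6 stage comparisons used young adult or E19.5 as reference, and E19.5 against E18.5 was added after seeing the stage means. Males and females were compared over 9 pairs with stage as a block. With 3 arrays per stage, their number limits the precision, and low intensities near background compress fold changes. The script was tested on simulated data.

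Members and gene lists were chosen with earlier results of these data known. Named were all 10 members, by their highest-mean probe set, the 3 genes most like each in profile, and the called genes of the wider lists with the 3 highest and 3 lowest changes at E19.5 against young adult hearts. Genes of the lists for skeletal muscle, epicardium, neural cells and adipocytes were measured too. Their mean levels over all arrays lay between 3.61 and 4.43 for 6 of 7 skeletal muscle genes, 4.36 and 6.36 for 5 of 5 epicardial genes, and 3.99 and 4.54 for 5 of 5 neural genes. The 3 of 4 adipocyte genes measured had mean levels of 2.16 to 2.75 in embryonic, 3.08 to 4.26 in young adult and 2.74 to 3.75 in old adult arrays, with 1 probe set called lower at each of E10.5, E14.5 and E19.5 against young adult hearts, and their part in the members' differences was not tested. Alternatives concerned the expression filter, the normalization, the arrays in the fit, the hybridization control level as a covariate, the sex label as a block, each array left out, the limits of a call and the summary over probe sets.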

Additional observations from a re-analysis of the deposited data

How the results depend on the processing

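Of 960 recomputed fold changes of the 10 genes, 913 kept their direction and their side of the limits, 22 lost a call, 3 gained one and 22 changed sign. Counts of called member probe sets changed by more than 1.5 times, or from or to 0, as follows. With the hybridization control level as a covariate there were 11 in E10.5 against young adult hearts and 0 in E10.5 against E19.5. With only the arrays of both stages there were 8 in E19.5 against young adult hearts and 0 in E10.5 against E19.5, where quantile renormalization left 1. The renormalization kept only probe sets with a mean above 5 over all arrays. This removed the called *Plagl1* probe set, whose mean was 3.84, before the test. A log2 limit of 1 gave 6 in E10.5 against E19.5 and 1 in E14.5 against E19.5. An adjusted p under 0.05 with no fold limit gave 30, 27, 5, 26, 9 and 1 in E10.5 and E14.5 against young adult, old against young adult, E10.5 and E14.5 against E19.5, and E19.5 against E18.5. Without each array in turn the counts were 17 to 19, 17, 13 to 15, 0, 2 to 4 and 0 in the embryonic stages E10.5, E14.5 and E19.5 and the old adult stage against young adult, and in E10.5 and E14.5 against E19.5. With the sex label as a replicate block on the arrays of both stages they were 13 at E14.5 and 12 at E19.5 against young adult hearts. This block pairs arrays of different animals by sex only.

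All sign changes were in differences that were not called. In old against young adult hearts, the covariate gave -0.16 for *Igf2*, -0.081 for *Grb10*, -0.20 for *Mest* and -0.17 for *Igf2r*. *Igf2r* was also -0.014 after median centring and -0.043 over all its probe sets. Without each array in turn *Igf2r* ranged from -0.022 (without old adult replicate 1) to 0.24, *Dlk1* from -0.32 to 0.15 (without old adult replicate 1) and *Plagl1* from -0.29 (without old adult replicate 3) to 1.54, around a difference of 0.75 with all arrays. In E10.5 against young adult, *Dlk1* was -0.0081 after quantile renormalization, -0.071 after median centring and -0.46 with the covariate. In E10.5 against E19.5, *Meg3* was 0.16 and *Ndn* 0.17 with the covariate and 0.31 and 0.87 over all their probe sets. *Dlk1* ranged from -0.26 to 0.017 without each array in turn, positive without E10.5 replicate 3 and without E19.5 replicate 1. In E14.5 against E19.5, *Ndn* was -0.044 after median centring. Without E19.5 replicate 3, the mixed array, *H19*, *Igf2* and *Mest* turned negative there, and their ranges were -0.16 to 0.41, -0.038 to 0.46 and -0.082 to 0.53. The causes were not tested. The control level differs between the stages compared, so the covariate and the stage are partly confounded.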
